A study of Drosophila melanogaster with 3 samples.

Results

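The Cpr genes of Drosophila melanogaster encode structural proteins of the cuticle, and their transcripts were compared here between kep1 mutant and wild-type males. Members were the probes whose CG gene number in the array layout maps to a gene symbol made of Cpr and a digit. This choice used gene names only and no measured value. It gave 38 probes of 37 genes among the 11744 probes on the array, since Cpr47Ee has 2 probes, the clones RH32624 and bs36b06.y1. The gene table used for names lists 70 Cpr genes, and the other 33 were not analysed here. The gene named Cpr with no digit, a cytochrome P450 reductase, does not belong to the family and was left out. A further probe is listed as CG4791 on arrays 2 and 3, a former number of both Cpr31A and CG33301, and as CG33301 on array 1, and it was not counted.

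Cpr proteins carry the Rebers-Riddiford domain, a conserved stretch that binds chitin. Epidermal cells secrete them together with chitin fibres, and the mix of proteins gives each piece of cuticle its stiffness or flexibility. Most family members are transcribed in bursts timed by the moulting hormone ecdysone, when larval, pupal and adult cuticle is laid down. In the adult head, cuticle forms the head capsule, the bristles, the mouthparts, the tracheae and the transparent corneal lenses of the compound eye.

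Each of 3 spotted 2-colour cDNA arrays from the Canadian Drosophila Microarray Center set RNA of w1118 wild-type males, in channel 1 with Cy3, against RNA of homozygous kep1-/kep1- males, in channel 2 with Cy5. The arrays are numbered 1 to 3 here in their order in the series, where their titles give 1, 3 and I vs J. The kep1 gene, listed as qkr58E-3, encodes a STAR family protein that binds RNA. The design text names male heads at 3 to 4 days of age and an independent RNA sample for each array, whereas the source labels name male RNA without a tissue. No label says how the mutant allele was made, whether it was crossed into the w1118 background or how many flies were pooled, so a strain difference other than kep1 cannot be told apart from the mutation. The same holds for a dye effect particular to a probe, because Cy5 marked the mutant on every array. In bulk RNA, fewer cells of a type and less RNA per cell cannot be told apart. Each value is an average over all the tissue extracted.

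Spots printed without DNA served as the measure of darkness. Their foreground intensity had a 95th percentile between 111.9 and 444.5 in the 6 channels, against probe medians of 226.9 to 306.8. Depending on the channel, 31.8% to 80.4% of probes were brighter than that, with the highest shares on array 2. The log2 ratios of arrays 1 and 3 correlated across all probes with r = 0.691, and array 2 correlated with them at r = 0.41 and 0.475; probes are not independent replicates. The kep1 probe itself, the check of the labels, had log2 ratios of -1.59, -1.35 and -2.13 for mutant over wild type, a mean of -1.69 ± 0.40 (SD, n = 3, limma adjusted p = 0.0726).

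A Cpr probe was counted as above the blank spots if its foreground exceeded their 95th percentile in at least 1 channel on all 3 arrays, and as below if it did so on none. By this measure 14 of the 38 probes, of 13 genes, were above, or 36.8%, which is close to the 36.5% of all probes tested. Another 6 probes were above on 1 or 2 arrays, and 18 were below. Most of the family was therefore measured at or near the level of spots without DNA, and for those genes these arrays give little information on a difference. Over both genotypes and all arrays, foregrounds ran from 262.9 to 5975.0 among the 14 probes above the blank spots and from 0 to 246.2 among the 18 below.

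No Cpr probe passed the threshold of 0.05 on the limma adjusted p, at which 0.145% of all 11733 probes tested were called. At the looser threshold of 0.1, where 2.12% of all probes were called and 0.767% called higher, 2 members passed, Cpr97Ea and Cpr100A, both higher in the mutant. At an unadjusted p under 0.05 in limma, 6 members were higher, or 15.8% of them against 6.24% of all probes, and 1 was lower, or 2.63% against 9.25%. The higher members were Cpr97Ea, Cpr100A, Cpr62Bc, Cpr97Eb, Cpr72Ec and Cpr56F, and the lower one was Cpr92F. All 7 counted as above the blank spots, but Cpr97Ea, Cpr97Eb and Cpr56F did so through the mutant channel, being over the level in wild type on 2 arrays, so the status is no separate support for their difference. The count at an unadjusted p was added after the data had been seen, and such counts over members that share arrays carry no test.

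Over the whole family the median log2 ratio lay near 0. It was 0.0027 over the 37 genes, each taken at its brightest probe, beside -0.01 over all 9177 genes tested. Dim probes, whose ratios are drawn toward 0, make up most of that number. The median was 0.15 over the 14 bright probes, a description only, because some of them were bright through the group in which they were high. On the single arrays the median over the Cpr genes was 0.02, 0.04 and 0.03. The ratio had the same sign on all 3 arrays for 13 member probes, or 34.2%, against 39.0% of all probes. Of these, 11 were higher in the mutant, or 28.9% against 18.4% of all probes, and 2 were lower, or 5.26% against 20.5%. The plot of ratios by array shows a family gathered around 0 with a short arm of bright probes on the higher side.

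**Figure D1:**
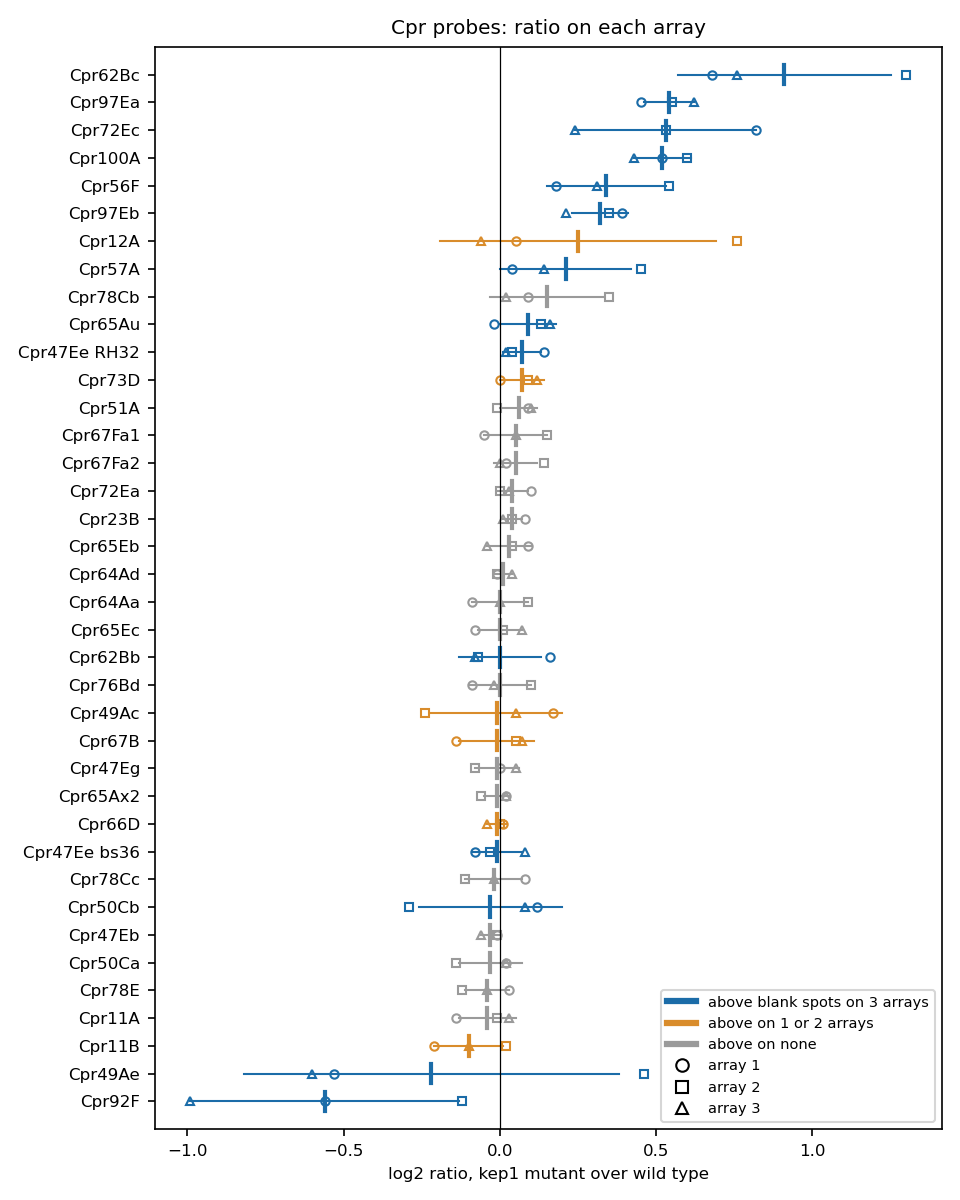
Log2 ratio of kep1 mutant over wild type (x axis) for each of the 38 Cpr probes (rows, ordered by mean). Open symbols are the 3 arrays, the upright bar is their mean and the horizontal line spans 1 SD to either side; colour gives the status against the blank spots. Means of the 18 probes below the blank spots lie between -0.04 and 0.15, while those of the 14 bright probes range from -0.56 to 0.91.

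Cpr97Ea (CG6131) had the smallest p of the family. On arrays 1, 2 and 3 its foreground measured 990.7, 451.7 and 316.1 in wild type against 1480.5, 590.3 and 555.5 in the mutant. The mutant value was the higher of the pair on every array, although the wild-type value on array 3 lay under the blank level of its channel. After normalization the log2 ratios were 0.45, 0.55 and 0.62, a mean of 0.54 ± 0.08 (SD, n = 3), or 1.46-fold (limma adjusted p = 0.0842).

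Cpr100A (CG12045), named for its place near the tip of chromosome arm 3R, had similar wild-type foregrounds on all arrays. It had foregrounds of 1674.3, 1682.7 and 1398.5 in wild type against 2721.3, 2219.3 and 1855.5 in the mutant. On every array the mutant value was above the wild-type value before normalization. Its log2 ratios were 0.52, 0.60 and 0.43, a mean of 0.52 ± 0.09 or 1.43-fold (limma adjusted p = 0.0903).

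Cpr62Bc (CG1919) showed the largest mean ratio among the members. Its foreground was 1426.1, 1169.9 and 859.1 in wild type against 2616.7, 2544.4 and 1416.1 in the mutant. The mutant was higher on each array, and the mutant value of array 3 fell just under the wild-type value of array 1. The log2 ratios were 0.68, 1.30 and 0.76, with a mean of 0.91 ± 0.34 or 1.88-fold (limma adjusted p = 0.10). The SD was wide, with array 2 apart from the others.

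Cpr97Eb (CG15884) is the direct neighbour of Cpr97Ea on 3R. Its foreground of 673.2, 898.1 and 349.6 in wild type compared with 1002.1, 988.1 and 418.8 in the mutant. The mutant again led on each array, by a smaller margin, and the ranges of the groups overlapped. The wild-type value on array 3 was under the blank level there. The log2 ratios were 0.39, 0.35 and 0.21, a mean of 0.32 ± 0.09 or 1.25-fold (limma adjusted p = 0.133).

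Cpr72Ec (CG4784) encodes a protein of the corneal lens. Its foreground varied far more between arrays than between genotypes, with 419.5, 2751.1 and 1209.1 in wild type against 758.9, 3465.1 and 1386.9 in the mutant. The mutant value exceeded the wild-type value of the same array each time. The log2 ratios of 0.82, 0.53 and 0.24 had a mean of 0.53 ± 0.29, or 1.45-fold (limma adjusted p = 0.169).

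Cpr56F (CG9036) was dim, with 457.3, 421.4 and 262.9 in wild type against 553.0, 544.6 and 364.3 in the mutant. The wild-type value on array 3 did not exceed the blank level there. Its log2 ratios of 0.18, 0.54 and 0.31 averaged 0.34 ± 0.19, or 1.27-fold (limma adjusted p = 0.193).

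Cpr92F (CG5494) was the single bright member below 0 on all arrays. Its foreground was 1093.5, 1385.7 and 1102.6 in wild type against 888.2, 1082.1 and 562.1 in the mutant, which was the lower on every array. As log2 over the median probe of the channel, the groups overlapped. These levels were 1.91, 2.18 and 2.15 in wild type against 1.70, 2.09 and 1.31 in the mutant. The normalized log2 ratios spread widely, at -0.56, -0.12 and -0.99, with a mean of -0.56 ± 0.43 or 1.47-fold lower (limma adjusted p = 0.258).

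**Figure D2:**
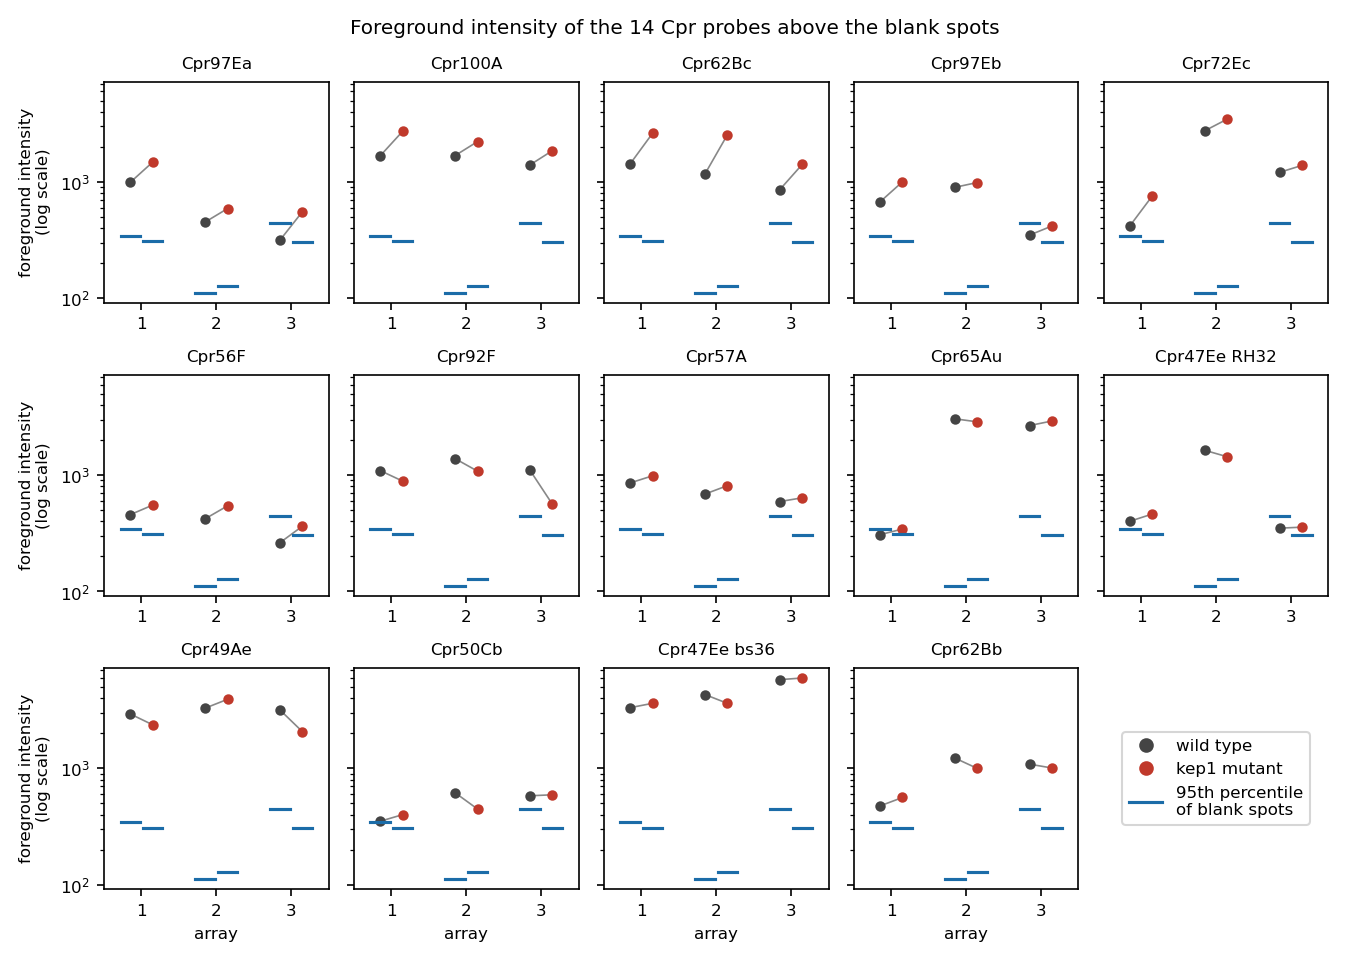
Foreground intensity (log axis, linear units of the scanner, before normalization) of the 14 Cpr probes above the blank spots on arrays 1 to 3 (x axis); grey points are wild type, red points kep1 mutant, and a line joins the samples of 1 array. Blue bars mark the 95th percentile of the blank spots in that channel. In Cpr97Ea, Cpr100A, Cpr62Bc, Cpr97Eb, Cpr72Ec, Cpr56F and Cpr57A the red point is above its grey partner on all 3 arrays, and in Cpr92F it is below.

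The other bright probes lay close to 0 or changed sign between arrays. Cpr57A (CG18066) had foregrounds of 856.5, 687.5 and 592.9 in wild type against 986.6, 812.0 and 638.4 in the mutant, with log2 ratios of 0.04, 0.45 and 0.14 (0.21 ± 0.21, limma adjusted p = 0.417). Its direction was the same on every array, but the mean was no larger than the SD.

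Cpr49Ae (CG8505) was a bright probe with no settled direction. Wild-type foregrounds of 2933.2, 3289.9 and 3171.1 stood beside mutant foregrounds of 2365.4, 3921.7 and 2063.3. The log2 ratios were -0.53, 0.46 and -0.60 (-0.22 ± 0.60, limma adjusted p = 0.741), with array 2 on the other side from arrays 1 and 3. The 95% interval of the mean, from -0.87 to 0.42, holds values on both sides of 0.

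Cpr47Ee (CG13222) could be read on 2 probes of the same gene. The RH32624 probe had log2 ratios of 0.14, 0.04 and 0.02, a mean of 0.07 ± 0.06 with a 95% interval from -0.08 to 0.21. Its wild-type foreground on array 3, at 350.0, lay under the blank level of 444.5. The bs36b06.y1 probe had -0.08, -0.03 and 0.08, a mean of -0.01 ± 0.08 with an interval from -0.17 to 0.14. Both intervals hold 0. The RH32624 probe was near the blank level on arrays 1 and 3, where ratios are drawn toward 0. Only the interval of the bright bs36b06.y1 probe therefore limits the size of a difference, as read by that probe.

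Cpr65Au had a mean of 0.09 ± 0.09, with a 95% interval from -0.07 to 0.26. Cpr62Bb had ratios of 0.16, -0.07 and -0.08, a mean of 0.00 ± 0.13, with an interval from -0.19 to 0.20. Cpr50Cb had ratios of 0.12, -0.29 and 0.08, a mean of -0.03 ± 0.23, with an interval from -0.31 to 0.24. None of these intervals excludes 0, and the signs of Cpr62Bb, Cpr50Cb and the bs36b06.y1 probe of Cpr47Ee turned under other ways of normalizing.

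The 6 members above the blank spots on only 1 or 2 arrays were Cpr11B, Cpr12A, Cpr73D, Cpr66D, Cpr67B and Cpr49Ac. Their mean ratios ran from -0.10 to 0.25, none had the same sign on all arrays, and the smallest limma adjusted p among them was 0.582. The value of 0.25 belonged to Cpr12A and came from array 2 alone, where its log2 ratio was 0.76 against 0.05 and -0.06 on the others. Its duplicate spots on that array differed by 1.28 on the log2 scale, more than the ratio itself. Cpr66D, another lens protein, had a mean of -0.01 ± 0.03, at foregrounds of 198.1, 189.5 and 122.4 in wild type against 173.4, 160.4 and 104.9 in the mutant. Those levels exceeded the blank spots on array 2 only.

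The 18 members below the blank spots were Cpr11A, Cpr23B, Cpr47Eb, Cpr47Eg, Cpr50Ca, Cpr51A, Cpr64Aa, Cpr64Ad, Cpr65Ax2, Cpr65Eb, Cpr65Ec, Cpr67Fa1, Cpr67Fa2, Cpr72Ea, Cpr76Bd, Cpr78Cb, Cpr78Cc and Cpr78E. Their mean log2 ratios ran from -0.04 to 0.15. A ratio near 0 from spots at the level of blank ones says nothing of the transcript, since the offset added to both channels draws dim ratios toward 0. Duplicate spots of a probe differed by up to 1.08 on the log2 scale in this group, against at most 0.371 among the 14 bright probes. That range leaves out pairs in which a spot gave no ratio, all of them on array 2 and in this group. All 18 still passed the filter on local background that set which probes were tested.

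Brightness was also counted by the library a clone came from, after the values had been seen. Clones with the prefix GH or RH were drawn from adult head libraries, those with LD or RE from embryos and those with LP from larvae and early pupae. Among the 13 Cpr probes from head libraries 8 were above the blank spots, beside 43.4% of all GH or RH probes. Among the other 25 it was 6, beside 34.2% of all other probes. Of the 17 RE clones 3 were above, Cpr100A, Cpr97Eb and Cpr56F, where 24.5% of all RE probes were. Cpr97Eb and Cpr56F were so only through the mutant channel, being over the level in wild type on 2 arrays. The same held for Cpr97Ea, Cpr65Au and the RH32624 probe of Cpr47Ee among the head clones. Both of the 2 LD clones, Cpr62Bc and Cpr49Ae, were above, where 44.2% of all LD probes were, and none of the 5 LP clones was, although 40.8% of all LP probes were. A clone from a head library records that the transcript was once found in heads. These counts describe which members were bright in at least 1 channel and are no support for a difference between genotypes.

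Members above the blank spots were also counted by chromosome arm, where 36.5% of all probes tested were above. That share was not taken for each arm, so these counts are a description only. All 4 measured Cpr genes on chromosome arm 3R, Cpr92F, Cpr97Ea, Cpr97Eb and Cpr100A, were above the blank spots. For Cpr97Ea and Cpr97Eb this came through the mutant channel, in which they were higher. On 3L, which carries 35 of the 70 Cpr genes, 4 of 19 probes were above. On 2R it was 6 of 11, with both probes of Cpr47Ee counted, on X 0 of 3, and the single probe on 2L was below. Cpr65Au on 3L, and Cpr56F and the RH32624 probe of Cpr47Ee on 2R, were also above only through the mutant channel. The 3R members did not share a direction, since their means ran from -0.56 to 0.54.

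Many Cpr genes stand in clusters of near neighbours, and 12 pairs of consecutive members on the same stretch were both measured. In only 2 pairs were both genes above the blank spots. Cpr62Bb and Cpr62Bc lie next to each other with no gene between them, and Cpr62Bc exceeded Cpr62Bb by 0.53, 1.37 and 0.83 in log2 ratio on the 3 arrays, a mean difference of 0.91 ± 0.42. Cpr97Ea and Cpr97Eb, also adjacent, differed by -0.06, -0.20 and -0.41 for the second minus the first, a mean of -0.23 ± 0.18. Both differences kept 1 sign on all arrays, and the exact two-sided sign-flip p was 0.25 for each, the smallest that 3 arrays allow (0.60 after Benjamini-Hochberg adjustment over the 12 pairs). Differences between a bright gene and a dim neighbour, such as 0.49 ± 0.26 between Cpr72Ec and Cpr72Ea, mix a measured ratio with one at the level of blank spots. A cDNA probe can also bind transcripts of close relatives in the family, and how far it did so was not tested.

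For several members the level differed more between arrays than between genotypes. Levels were taken as log2 of the foreground over the median probe of the same channel. The level of Cpr65Au was 0.08, 3.31 and 3.43 in wild type against 0.33, 3.50 and 3.69 in the mutant, a span of 10.2-fold and 10.3-fold, with array 1 low in both genotypes. On array 1 its wild-type foreground of 307.8 lay under the blank level of 343.4, and its mutant foreground of 344.0 just over 310.2. The span therefore starts from values near the blank level. Of the 4288 probes above the blank spots only 0.117% had a larger span in both channels. Cpr72Ec spanned 6.22-fold in wild type and 4.92-fold in the mutant, with array 1 lowest and array 2 highest in both.

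Despite its swing, Cpr65Au kept ratios between -0.02 and 0.16. The value of -0.02 came from array 1, where the probe was near the blank level. Cpr72Ec had ratios of 0.82, 0.53 and 0.24, the largest on array 1, where its level was lowest in both genotypes. The probes of Cpr47Ee did not order the arrays alike, since RH32624 was highest on array 2 and bs36b06.y1 on array 3 in both genotypes. Cpr100A lay at the other end, with levels of 2.53, 2.46 and 2.50 in wild type, a span of 1.05-fold. The span over arrays was larger than the size of the mean ratio for 11 of the 14 bright members, against 87.2% of all bright probes. Both channels of a spot share the printed DNA, and the source of the swings was not tested.

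**Figure D3:**
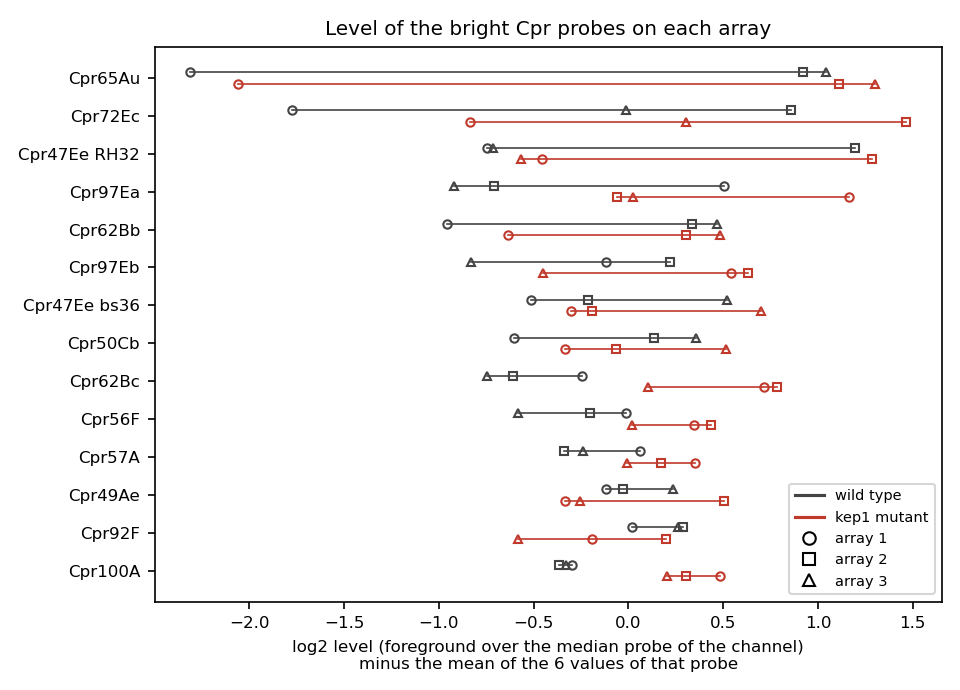
Level of each of the 14 bright Cpr probes on each array, as log2 of the foreground over the median probe of the channel, minus the mean of the 6 values of that probe (x axis); grey is wild type, red kep1 mutant, and symbols are arrays. In Cpr65Au and Cpr72Ec the arrays lie far apart while the genotypes lie close. In Cpr100A, Cpr62Bc and, by a narrow margin, Cpr56F all red symbols lie to the right of all grey ones. The share of all probes for which this holds was not counted.

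Other genes of cuticle formation were set beside the family, each at its brightest probe and in the same fit. Among 10 further Rebers-Riddiford proteins not named Cpr, none passed the threshold and the median ratio was 0.0002. At an unadjusted p under 0.05 in limma 1 was higher, Crys, and 1 lower, Acp65Aa. Each is 10% of the list, beside 5.7% higher and 9.97% lower among all genes. Crys, which encodes the lens protein drosocrystallin, had log2 ratios of 0.91, 1.13 and 0.83 (0.96 ± 0.16, 1.94-fold, limma adjusted p = 0.0620). Acp65Aa, an adult cuticle protein gene, had -0.66, -0.01 and -0.73 (-0.47 ± 0.39, limma adjusted p = 0.296).

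Among 31 genes of other cuticle protein families none passed, and the median was 0.03. The chitin-binding obstructor genes obst-A (0.56 ± 0.28) and obst-B (0.39 ± 0.23) had the largest ratios of 1 sign. In the unadjusted test at 0.05, 5 of the 31 were higher and 1 was lower, beside 5.7% and 9.97% of all genes. Gasp, another chitin-binding protein and 1 of the 5, was named after its value was seen, with 0.36 ± 0.08 (limma adjusted p = 0.102).

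Of 34 genes of chitin synthesis and remodelling 1 passed the threshold. Cda5, a chitin deacetylase, fell by 1.20 on the log2 scale, with ratios of -1.24, -1.25 and -1.12 (SD 0.07, 2.3-fold lower, limma adjusted p = 0.0287). Its foreground was 1273.8, 965.9 and 726.1 in wild type against 649.7, 309.5 and 269.9 in the mutant, which was the lower on every array. The call was lost with scaling between arrays and without array 1 or array 3, where no probe of the array was called, while the mean log2 ratio was -1.22, -1.19 and -1.24. In the rest of the list, 8 of the 34 genes were higher at an unadjusted p under 0.05 in limma, or 23.5% beside 5.7% of all genes. The median of the list was 0.05, less than the SD of 0.07 between its medians on the 3 arrays. Named after their values were seen, these included the chitinase Cht5 (0.82 ± 0.16), the chitin deacetylase Cda4 (0.73 ± 0.22) and Gfat1 (0.46 ± 0.11), which makes a precursor of chitin, and none of the 8 passed.

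Of 20 genes for tanning and pigmentation of cuticle none passed, with a median of 0.02. The largest ratios of 1 sign were those of yellow-e (0.71 ± 0.43) and yellow-d2 (0.63 ± 0.31), relatives of the pigment gene yellow. In all, 5 had an unadjusted p under 0.05 in limma and were higher, or 25% beside 5.7% of all genes, and none was lower, beside 9.97%. The 5 included stw (0.46 ± 0.13), a laccase that cross-links cuticle, which was named after its value was seen and whose dimmer probe was at 0.01.

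Of 19 hormonal and transcriptional regulators of cuticle genes none passed, with a median of 0.01. The brighter probe of grh, a transcription factor of epidermal barrier genes, stood at -0.77 ± 0.31 (limma adjusted p = 0.111), while its dimmer probe stood at 0.06. Eip78C, an ecdysone-induced nuclear receptor, stood at -0.22 ± 0.14 on its brightest probe. At an unadjusted p under 0.05 in limma, 1 of the 19 was higher, or 5.26% beside 5.7% of all genes, and 2 were lower, grh and Eip78C, or 10.5% beside 9.97%.

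The 4 lens proteins on the array include 2 Cpr genes, and their median of 0.38 was the highest of the lists. It was 0.24 without array 1 and 0.55 without array 3. The eye markers Rh4 (0.81 ± 0.12) and Rh6 (0.58 ± 0.16), opsins that also did not pass, had ratios of like size. They were the largest of the 12 eye and brain markers, whose median was 0.11. The others ran from Arr2 (-0.11 ± 0.20) to trp (0.33 ± 0.59). Crys and Cpr72Ec had positive ratios on all arrays, retinin had 0.51, 0.32 and -0.13 (0.23 ± 0.33), and Cpr66D was too dim to read. None passed the threshold, and Crys and Cpr72Ec were the 2 with an unadjusted p under 0.05 in limma. Both were higher, or 50% of a list of 4 genes, beside 5.7% of all genes.

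**Figure D4:**
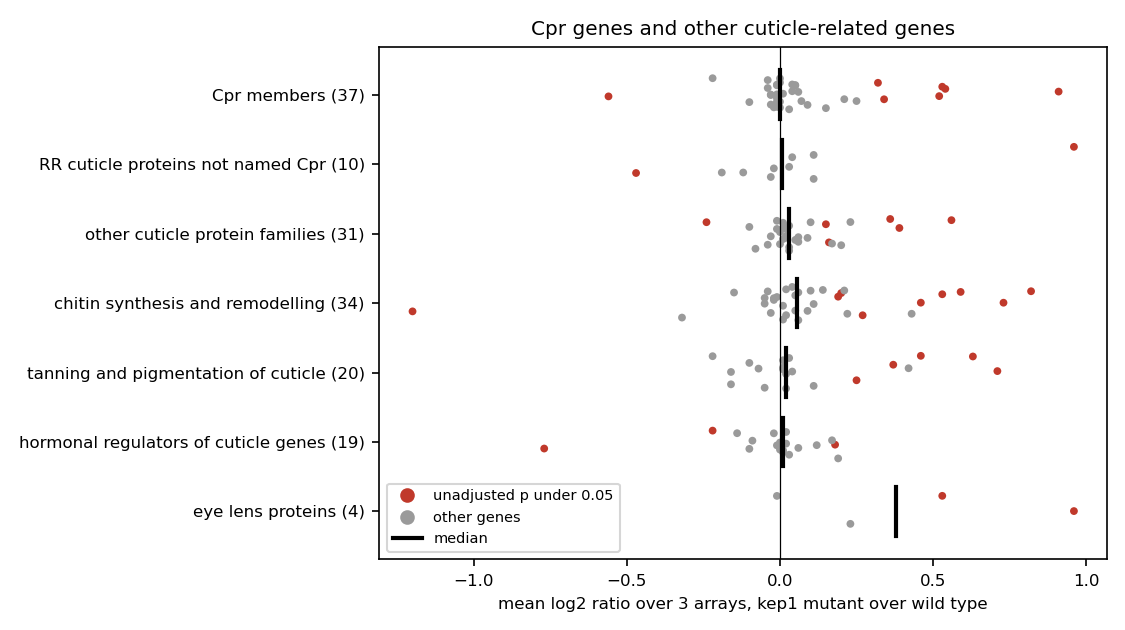
Mean log2 ratio of kep1 mutant over wild type over 3 arrays (x axis) for each gene of the Cpr family and of 6 related lists (rows, number of genes in brackets; points are spread vertically for legibility). Red points have an unadjusted limma p under 0.05 and black bars are medians. The Cpr median is 0.0027, and the lens list, with 4 genes, has the highest median at 0.38.

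Markers of other tissues differed in level between the groups on the same arrays. Beside the counts below, 18.4% of all probes tested were higher on all 3 arrays, 20.5% were lower and 0.145% passed the threshold. The 12 eye and brain markers of the head were all above the blank spots, with a median ratio of 0.11, 3 positive on every array and none past the threshold, and their summed foreground was 37469 to 58763 in wild type against 44227 to 49200 in the mutant. Of 12 gut markers 9 were measured and all 9 were lower in the mutant on every array, with a median of -1.56 and sums of 13719 to 27849 in wild type against 4579 to 8978, and 3 of them, Amy-d, Amy-p and LManVI, passed the threshold. Of 13 testis and accessory gland markers 9 were measured and 8 were lower on every array, with a median of -1.08 and sums of 16496 to 29655 against 7492 to 15719, and 1, loopin-1, passed. The 4 flight muscle markers had negative ratios on every array, at a median of -0.71 with overlapping sums of 30475 to 41673 against 19466 to 33903, and none passed.

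These tissues lie outside the head or, for the gut, mostly so. Of 5 genes of the fat body and of the days after eclosion, 4 had positive ratios on every array and none passed, with a median of 0.43 and sums of 1570 to 1851 in wild type against 3591 to 8289. Of 7 markers of wing, bristle and tracheal epidermis 6 were measured, with a median of 0.28 and sums of 8821 to 12250 against 11222 to 13028, and all 6 also stand in the cuticle lists above. Of 5 female markers, the yolk receptor gene yl was below the blank spots in both groups, and sums were 594 to 3981 against 2502 to 4645. The list's median of -0.02 was the value of yl. Yp3 (1.27 ± 0.98) and fit (1.47 ± 1.33) were positive on all arrays, and none of the list passed. Yp1 ran from -2.54 on array 1 to 2.96 on array 2. Array 2 also held the largest ratios of Yp3 (2.39) and fit (2.93), while Yp2 was at 0.13 and yl at 0.01 there. Cuticle genes are expressed in the epidermis of the whole body and vary with age after eclosion. The part of body tissue or age in the ratios of the Cpr genes was not tested.

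Which members would be called depended on how the arrays were processed. With the probes below the blank spots left out of the test, Cpr97Ea, Cpr100A and Cpr62Bc passed the threshold of 0.05, where 2.64% of the probes tested were called higher. Cpr97Ea met that filter through the mutant channel, since its wild-type foreground was over the blank level on 2 arrays, so its own difference helped decide that it was tested. With no background correction, and likewise with the deposited log2 values, Cpr62Bc and Cpr97Ea passed, where 0.989% and 1.03% of all probes were called higher. With plain subtraction of the background, and with an intensity trend in the variance model, Cpr62Bc alone passed, where 0.869% and 0.622% were. Cpr62Bc kept its sign in all 12 settings with means from 0.72 to 1.03, as did Cpr97Ea with 0.50 to 0.70 and Cpr100A with 0.48 to 0.61. Cpr92F was negative in all 12, with means from -0.77 to -0.34, and passed in none.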

How the data were processed

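Foreground and local background intensity per spot and channel were deposited by the authors as unnormalized scanner tables, per the file headers. A deposited table of log2 values matched the log2 ratio of foregrounds, mutant over wild-type channel, at 27648, 24779 and 27616 spots of arrays 1, 2 and 3. Image software and genome build are not given in the sources used here. Each array had 27648 spots, with 878 control, 1734 blank and 1548 failed spots, and 11744 probes printed as pairs of spots. Flagged spots to ignore numbered 22, 76 and 26 and were not used. Names came from CG numbers through RefSeq genes (assembly Release 6 plus ISO1 MT). This gave 10472 probes a symbol, 557 of them through an older number.

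In limma 3.58.1 (R 4.3.3), normexp with an offset of 50 corrected the background and loess normalized the ratios within arrays. Blank, control and failed spots had no weight there, and duplicates were averaged. Probes over local background by 2 background SDs in at least 1 channel on at least 2 of 3 arrays were tested. limma tested the mean log2 ratio against 0, two-sided, with Benjamini-Hochberg adjustment over 11733 probes. The steps were tested on simulated data. The spread behind the p-values is that between these RNA samples, of unstated rearing, and 3 arrays limit the precision. Members described in full were those above the blank spots, ordered by p. A list's named genes were at most 4 of those past the threshold, or failing that its 2 largest ratios that kept their sign on all arrays. Members, lists and tests were chosen with earlier results of these data known. Pairs of neighbours, clone libraries, chromosome arms and levels across arrays were examined after the values had been seen. The 12 alternatives covered background correction, normalization, filter, variance model and leaving out each array. No sequences of the members were used here.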

Additional observations from a re-analysis of the deposited data

How the results depend on the processing

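Every ratio rests on 3 arrays of 1 dye orientation, and the 18 Cpr probes below the blank spots, with the 6 above them on some arrays, are limited by signal over background. The test of ratios is itself paired by array, and no further pairing could be fitted.

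The number of all probes past the threshold was 17, and became 434 with no background correction, 390 with plain subtraction, 70 with median centring, 0 with scaling between arrays, 423 with the deposited log2 values, 381 with the blank-spot filter, 292 with an intensity trend and robust variances, and 249 at a threshold of 0.1. Leaving out an array gave 0 to 100, with 0 without array 1 or 3 and 100 without array 2. At an unadjusted p under 0.05 in limma, 752 were higher and 1077 lower with scaling, 551 and 781 without array 1, and 489 and 705 without array 3. For Cpr members the count of 0 became 2, 1, 2, 3 and 1 with no background correction, plain subtraction, the deposited values, the blank-spot filter and the intensity trend, and 2 at a threshold of 0.1. It was 0 on leaving out any array.

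The count of members lower at an unadjusted p under 0.05, which was 1, became 0 with scaling between arrays, and 0 to 2 on leaving out an array. Members of 1 sign on all arrays, 13 in the full set, numbered 19 to 23 with an array left out (22 without array 1, 23 without array 2), where fewer arrays have to share a sign. The median over the Cpr genes moved from 0.0027 to 0.10 with no background correction, 0.09 with plain subtraction, 0.02 with print-tip loess, 0.10 with median centring, 0.09 with the deposited values and 0.21 with the blank-spot filter, which keeps bright genes only, and to 0.02 and 0.03 without array 2 and array 1. The causes of the other shifts were not tested.

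Medians of the related lists moved as follows. Rebers-Riddiford proteins not named Cpr went to 0.04, 0.06 and 0.08 with no background correction, median centring and the deposited values, and ran from -0.01 to 0.04 with an array left out. Other cuticle protein families went to 0.10, 0.08, 0.07, 0.14 and 0.16 with no background correction, plain subtraction, median centring, the deposited values and the blank-spot filter, and to 0.05 without array 1. Regulators went to 0.07 and 0.06 with median centring and the deposited values. With the blank-spot filter the chitin list went to 0.19 and the lens list to 0.74.

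Genes past the threshold in the chitin list, 1 in the full fit, numbered 4, 4, 6, 5 and 3 with no background correction, plain subtraction, the deposited values, the blank-spot filter and the intensity trend, and 0 with scaling or without array 1 or 3. In the other lists, which had 0, each of these settings gave 0 to 2. Rebers-Riddiford and lens proteins had 1 with all 5, with median centring and without array 2. It was Crys each time, a single gene that stands in both lists. Other cuticle families had 1, 1, 2, 1 and 1. Tanning genes had 1, 1, 1 and 2 with the first 4 settings, and regulators had 1 with no background correction, the blank-spot filter and the intensity trend.

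Among 30 probes of 29 named genes, 359 values under alternatives held 8 changes of sign, all in bright Cpr probes near 0. Cpr50Cb went to 0.0017, 0.01 and 0.02 with no background correction, print-tip loess and the deposited values, and ran from -0.11 to 0.10 with an array left out. Cpr62Bb went to -0.0042 with median centring and -0.07 without array 1. The bs36b06.y1 probe of Cpr47Ee went to 0.08 with the deposited values and ran from -0.06 to 0.02 with an array left out.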
